A study of Homo sapiens with 7 samples.

Results

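The MEIS, PBX and PKNOX genes encode homeobox transcription factors, and 8 of them were followed here among the 60234 genes of the expression table: MEIS1, MEIS2, MEIS3, PBX2, PBX3, PBX4, PKNOX1 and PKNOX2. The 8 genes were chosen by name, around MEIS3, which had been picked because it was strongly lower after the MYH7B treatment. The fall of MEIS3 is therefore a description and carries no test. Poly-A RNA was sequenced from cardiomyocytes grown from WTC-11, an established human induced pluripotent stem cell line. The cells were differentiated with small molecules, matured for 35 days and then exposed passively for 96 h to 2 uM of an ASO, an antisense oligonucleotide made to pair with 1 RNA by its sequence. A scrambled ASO was given to the 3 control samples and an ASO against the MYH7B transcript to 4, so both groups carry an oligonucleotide and no sample without one is compared. All samples share 1 cell line, and the labels do not say whether they are separate differentiations, so p-values measure only the spread between these samples, which may be technical.

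MEIS, PBX and PKNOX proteins belong to the TALE class, named for a loop extension of 3 amino acids within the homeodomain, the part that binds DNA. MEIS and PKNOX (also called PREP) proteins pair with PBX proteins, and the pairs often join HOX proteins on DNA; pairing with MEIS or PKNOX also helps to bring PBX into the nucleus. In the heart, MEIS1 is known for holding back cardiomyocyte division after birth, and MEIS2 is needed for heart outflow development.

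The family resemblance can be read in the RNA. The lines below give 30 bases of the coding sequence of each gene, in the stretch that encodes the DNA-contacting recognition helix of the homeodomain, from transcripts of GENCODE 29; capitals mark bases that differ from MEIS3. They are shown because reads can be divided between genes only where sequences differ, and MEIS3 has processed pseudogene copies, MEIS3P1 and MEIS3P2, given as the last lines.
MEIS3: tggttcattaacgcccggagacgcatcgtg
MEIS1: tggttTattaaTgcccggagaAgAatAgtg
MEIS2: tggttTattaaTgccAgAagaAgAatAgtA
PKNOX1: tggttcatCaaTgccAgAagacgAatTCtT
PKNOX2: tggttcatCaaTgcccggagGcgcatcCtg
PBX2: tggttTGGCaacAAGAggaTTcgcTATAAg
PBX3: tggttTGGCaacAAAcgAaTCAgGTAcAAg
PBX4: tggttTGGCaacAAAAgAaTCcgGTATAAA
MEIS3P1: tggttcattaaTgcccggagacgcatcgtg
MEIS3P2: tggttcattaaTgcccggagacgcatGgtg

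In these 30 bases PKNOX2 differed from MEIS3 at 4, MEIS1 at 5, and MEIS2 and PKNOX1 at 8 each, against 15 for PBX2, 16 for PBX3 and 18 for PBX4. Over the 189 bases that encode the homeodomain, MEIS1 shared 78.8% with MEIS3 and MEIS2 77.2%. PKNOX2 shared 73.5%, PKNOX1 69.3% and the PBX genes 50.8% to 51.9%. No run of 31 bases in the transcripts of the other 7 genes occurred in a MEIS3 transcript. The copies were much closer, with 1 difference in MEIS3P1 and 2 in MEIS3P2, and 28.1% and 29.9% of their 31-base runs were also found in MEIS3. Runs of 75 bases were shared for 0.452% of MEIS3P1 and 1.498% of MEIS3P2. The read length and the way shared reads were divided are not given in the sources used here, so part of the MEIS3 signal could sit in the copies and the reverse.

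Some facts of the whole table bear on what follows. TPM is an abundance per transcript length, scaled to a fixed total in each library, so levels of different genes can be compared, but it holds no depth, and counting error cannot be given. In the deposited table MYH7B ASO replicate 1 is out of row order, so the comparisons rest on 6 libraries, 3 scrambled ASO and MYH7B ASO replicates 2, 3 and 4. Replicate 1 is given beside them after its rows were reordered. It stood apart: the share of mitochondrially encoded genes was 17.2% of TPM there and 27.4% to 33.6% elsewhere, which leaves more of the fixed total to its other genes, and 14823 of its genes reached 1 TPM. MYH7B, the target, stood at 23.0, 36.5 and 25.1 TPM in the scrambled ASO group, at 9.30, 5.65 and 6.31 TPM in MYH7B ASO replicates 2 to 4 and at 1.29 TPM in replicate 1, so it was lower in every MYH7B ASO library. The groups were compared with limma on log2(TPM + 1) over the 15988 genes whose 6-library mean reached 1 TPM, and a gene is called when its Benjamini-Hochberg adjusted p is under 0.05. By this rule 265 genes were called, 29 higher and 236 lower, which is 0.181% and 1.48% of genes tested. After median-ratio scaling the split was 58 higher and 213 lower. Between 15290 and 16207 genes per library reached 1 TPM in the 6 libraries. Heart muscle markers were present in every library: 8 markers summed to 7439 to 8707 TPM with the scrambled ASO and 6579 to 7648 TPM with the MYH7B ASO, and limma called none; the authors' deposited table calls 1, RYR2, lower.

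In the scrambled ASO libraries the 8 genes spanned from 76.0 TPM for MEIS2 to 1.66 TPM for PBX4, and all passed the filter on low values. MEIS2 stood first at 76.0 ± 3.17 TPM (SD, n = 3). PBX3 followed at 40.6 ± 5.33 TPM, PBX2 at 40.2 ± 6.03 TPM and MEIS3 at 33.2 ± 4.26 TPM, and these 3 genes overlapped in range. MEIS1 came next at 19.9 ± 4.43 TPM. PKNOX1 at 9.02 ± 4.31 TPM and PKNOX2 at 8.35 ± 2.68 TPM did not differ beyond their spread. PBX4 was the lowest at 1.66 ± 1.03 TPM. With the MYH7B ASO the order was MEIS2, PBX2, PBX3, MEIS1, PKNOX1, MEIS3, PKNOX2 and PBX4, so MEIS3 moved from the fourth place to the sixth. In that group PBX2 and PBX3 no longer overlapped, while MEIS3 lay within the range of PKNOX1.

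**Figure D1:**
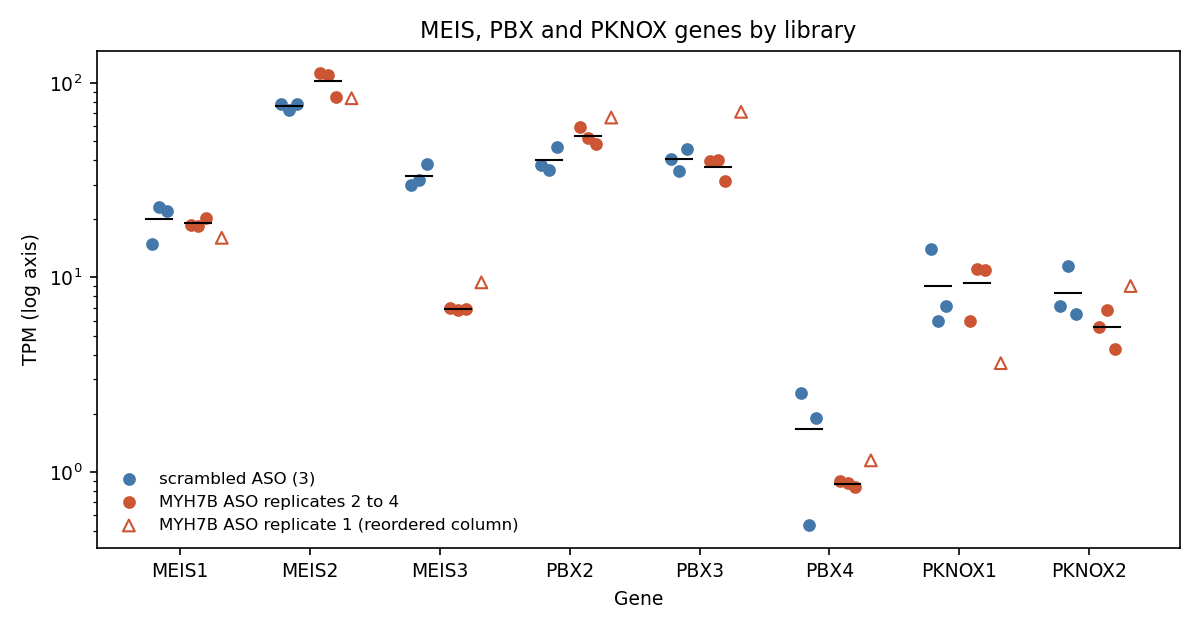
TPM of the 8 genes on a log axis, with 1 point per library and a bar at the mean of 3 libraries; blue is the scrambled ASO, filled red is MYH7B ASO replicates 2 to 4, and the open triangle is MYH7B ASO replicate 1 after reordering. MEIS3 is the gene whose groups lie farthest apart, at 29.9 to 38.0 TPM against 6.83 to 6.96 TPM.

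MEIS3 (ENSG00000105419.18) lies on the minus strand of chromosome 19, at positions 47403124 to 47419523 in GENCODE 29 on GRCh38. Scrambled ASO replicates 1 to 3 had 29.9, 31.8 and 38.0 TPM of MEIS3. MYH7B ASO replicates 2 to 4 had 6.96, 6.83 and 6.89 TPM. Every MYH7B ASO library was below every scrambled ASO library, and the 3 MYH7B ASO values were close together. The mean went from 33.2 ± 4.26 to 6.89 ± 0.0662 TPM (SD, n = 3 each), which is 4.82-fold lower. The log2 fold change was -2.11 with a limma standard error of 0.16, and 37 of the 15988 tested genes had a lower one. These values chose the gene. The library that the rule left out, MYH7B ASO replicate 1, had 9.44 TPM of MEIS3, also below every scrambled ASO library. In the authors' deposited table MEIS3 had a shrunken log2 fold change of -1.95 with a standard error of 0.16.

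Of the 6 coding transcripts of MEIS3 in the GENCODE 29 basic set that hold the helix shown above, 3 carry another sequence in the first part of the 189-base stretch, and their identity to MEIS1 over it was as low as 60.3%, in place of 78.8%. The table gives 1 value per gene, so which transcripts were lower was not measured. Neither pseudogene copy was called. MEIS3P1 had 6.42, 4.70 and 4.93 TPM with the scrambled ASO and 5.40, 4.66 and 2.90 TPM with the MYH7B ASO, and the groups overlapped (log2 fold change -0.28, SE 0.25, limma adjusted p = 0.642). MEIS3P2 had 5.21, 1.56 and 2.12 TPM and then 2.01, 1.94 and 1.71 TPM, also overlapping (log2 fold change -0.35, SE 0.37, limma adjusted p = 0.696). The ratio of MEIS3 to MEIS3P1 went from 4.66 to 7.72 in the scrambled ASO libraries to 1.29 to 2.38 in the MYH7B ASO libraries.

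The genes beside MEIS3 on chromosome 19 were read from the same fit. SLC8A2, a sodium-calcium exchanger, is separated from MEIS3 by 8494 bp and was low, at 0.385 to 2.04 TPM with the scrambled ASO and 0.401 to 1.91 TPM with the MYH7B ASO. DHX34, an RNA helicase of nonsense-mediated decay, lies 20420 bp away on the other side. It differed by 0.03 on the log2 scale (SE 0.27). KPTN had 0.49 (SE 0.34) and INAFM1 0.41 (SE 0.25). None of these 4 neighbours was called, with limma adjusted p from 0.495 to 0.972, and in all 4 the groups overlapped.

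MEIS2 (chromosome 15, minus strand, positions 36889204 to 37101299) was the most abundant of the 8 genes. The scrambled ASO libraries had 78.1, 72.4 and 77.7 TPM of it, against 112, 110 and 84.8 TPM in MYH7B ASO replicates 2 to 4. All 3 MYH7B ASO libraries were above the scrambled ASO range. Replicate 1, at 83.3 TPM, was slightly above it too, but its mitochondrial share of 17.2% raises the TPM of its other genes. With the scrambled ASO that share was 27.4% to 33.2%, so the place of replicate 1 for MEIS2 depends on the scaling. The mean was 76.0 ± 3.17 TPM and then 102 ± 15.1 TPM (SD, n = 3 each), a ratio of 1.34. The log2 fold change of 0.41, with an SE of 0.15, missed the threshold (limma adjusted p = 0.234). The authors' deposited table gives MEIS2 a shrunken difference of 0.45 on the log2 scale with an adjusted p-value of 0.00945, a call that the limma fit on TPM does not make. The headers of that table do not name the libraries it compared.

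MEIS1 (chromosome 2, plus strand, positions 66433452 to 66573869) had 14.8, 23.0 and 21.9 TPM with the scrambled ASO and 18.6, 18.5 and 20.2 TPM with the MYH7B ASO. The MYH7B ASO values lay inside the scrambled ASO range. The log2 fold change was -0.03 with an SE of 0.19 (limma adjusted p = 0.958), and the sign turned with the scaling, to 0.03 under median-ratio scaling. Replicate 1 had 15.98 TPM. The antisense genes MEIS1-AS2 and MEIS1-AS3, which overlap MEIS1, had a 6-library mean under 1 TPM and were not tested. MEIS1-AS2 had 0.028, 0 and 0.138 TPM with the scrambled ASO and 1.45, 1.02 and 0.169 TPM with the MYH7B ASO. It had 1.32 TPM in replicate 1. MEIS1-AS3 overlapped, at 0.178 to 1.14 and then 0.124 to 0.936 TPM. The strand setting of the counting is not given in the sources used here.

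The MEIS genes together changed in composition more than in sum. MEIS1, MEIS2 and MEIS3 summed to 129 ± 7.61 TPM with the scrambled ASO and 128 ± 14.1 TPM with the MYH7B ASO (SD, n = 3 each), and the ranges overlapped. MEIS3 made up 24.4% to 27.7% of that sum with the scrambled ASO and 5.05% to 6.16% with the MYH7B ASO. MEIS2 made up 56.5% to 63.6% and then 75.8% to 81.4%. The share of MEIS1 was 15.3% ± 3.04 and 15.1% ± 2.58 (SD, n = 3 each). The ratio of MEIS2 to MEIS3 was 2.04 to 2.61 with the scrambled ASO and 12.3 to 16.1 with the MYH7B ASO. The shares contain MEIS3, so they are a description as its fall is. In replicate 1 the sum was 109 TPM, the share of MEIS3 8.68% and the share of MEIS2 76.6%.

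**Figure D2:**
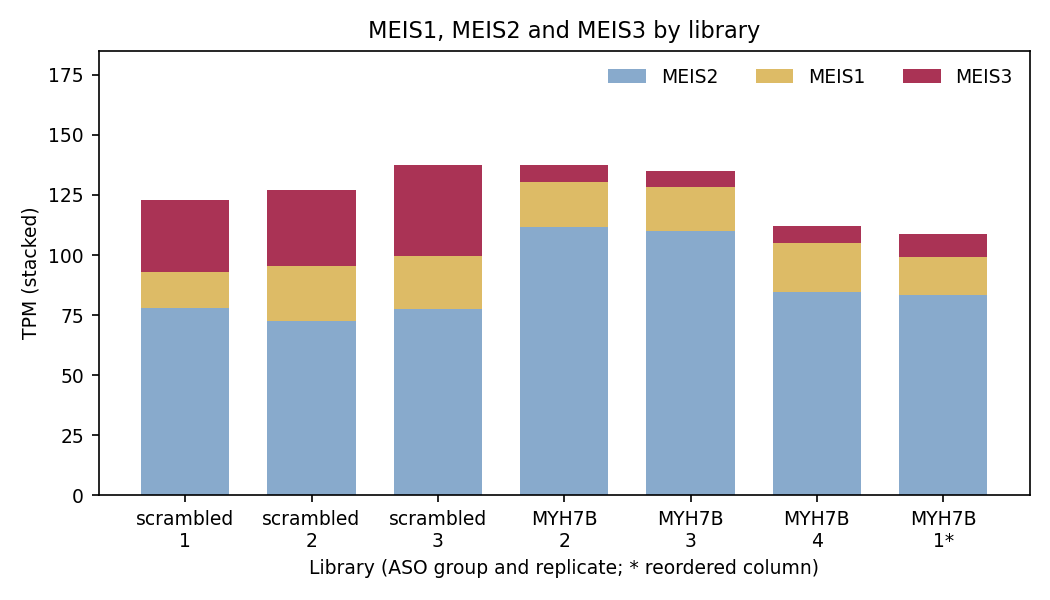
TPM of MEIS2, MEIS1 and MEIS3 stacked from zero, with 1 bar per library; the asterisk marks MYH7B ASO replicate 1, whose column was reordered. The 6 libraries compared reach 123 to 138 TPM with the scrambled ASO and 112 to 137 TPM with the MYH7B ASO, while the MEIS3 part is at most 6.16% in the 3 MYH7B ASO libraries.

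The PBX genes encode the partners of MEIS and PKNOX proteins. PBX2 (chromosome 6, minus strand, positions 32184741 to 32190186) had 37.9, 35.6 and 47.03 TPM with the scrambled ASO and 59.5, 51.9 and 48.6 TPM with the MYH7B ASO. The groups did not overlap, and replicate 1, at 66.3 TPM, was also above the scrambled ASO range. The mean was 40.2 ± 6.03 TPM and then 53.3 ± 5.60 TPM (SD, n = 3 each). The log2 fold change of 0.40, with an SE of 0.16, did not pass (limma adjusted p = 0.278). In the authors' deposited table PBX2 was 0.44 higher on the shrunken log2 scale (adjusted p-value 0.0154).

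PBX3 (chromosome 9, plus strand, positions 125747345 to 125967377) had 40.8, 35.2 and 45.8 TPM with the scrambled ASO and 39.7, 40.2 and 31.4 TPM with the MYH7B ASO. The groups overlapped, with a log2 fold change of -0.13 (SE 0.17, limma adjusted p = 0.760). Replicate 1 stood apart at 70.9 TPM, above all other libraries, and with it the difference was 0.10. PBX4 (chromosome 19, minus strand, positions 19561707 to 19618916) had 2.56, 0.534 and 1.89 TPM and then 0.898, 0.878 and 0.834 TPM. Its scrambled ASO values were so spread that the log2 fold change of -0.42 had an SE of 0.42 (limma adjusted p = 0.674). The ratio of PBX2 to PBX3 was 0.930, 1.01 and 1.03 with the scrambled ASO and 1.498, 1.29 and 1.54 with the MYH7B ASO, and 0.934 in replicate 1. That ratio thus separated the 6 libraries by group but not all 7.

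PKNOX1 and PKNOX2 compete with MEIS proteins for PBX partners. PKNOX1 (chromosome 21, plus strand, positions 42974510 to 43033931) had 13.9, 5.94 and 7.17 TPM with the scrambled ASO and 5.95, 11.0 and 11.0 TPM with the MYH7B ASO. The groups overlapped, and the difference was 0.08 on the log2 scale (SE 0.33, limma adjusted p = 0.937). Replicate 1 was lower than every other library at 3.63 TPM, and with it the difference was -0.20. PKNOX2 (chromosome 11, plus strand, positions 125164687 to 125433389) had 7.13, 11.4 and 6.51 TPM and then 5.57, 6.80 and 4.31 TPM. The groups overlapped, and the log2 fold change of -0.49, with an SE of 0.25, did not pass (limma adjusted p = 0.406).

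Apart from MEIS3, none of the 7 other genes was called by limma, against 1.66% of all genes tested in either direction; 2 of the 7, MEIS2 and PBX2, had an unadjusted p under 0.05, against 15.2% of all genes tested. The same 2 genes were the only ones of the 7 whose groups did not overlap. Both were higher with the MYH7B ASO; of all genes tested, 21.2% had groups apart in either direction, 7.11% higher and 14.1% lower. The authors' deposited table called 2 of the 7, again MEIS2 and PBX2, against 3.02% of its genes called higher, 5.69% called lower and 8.71% called in either direction. With the reordered replicate 1 included, limma called 1.07% of all genes tested and none of the 7. The 7 log2 fold changes ran from -0.49 to 0.41 with a median of -0.03, beside a median of -0.04 over all genes tested. Precision differed between the genes: the within-group SD of log2(TPM + 1) was 0.12 for MEIS3, 0.16 for MEIS2 and 0.18 for PBX2, against 0.45 for PBX4, 0.52 for PKNOX1 and a median of 0.28 over all genes tested.

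**Figure D3:**
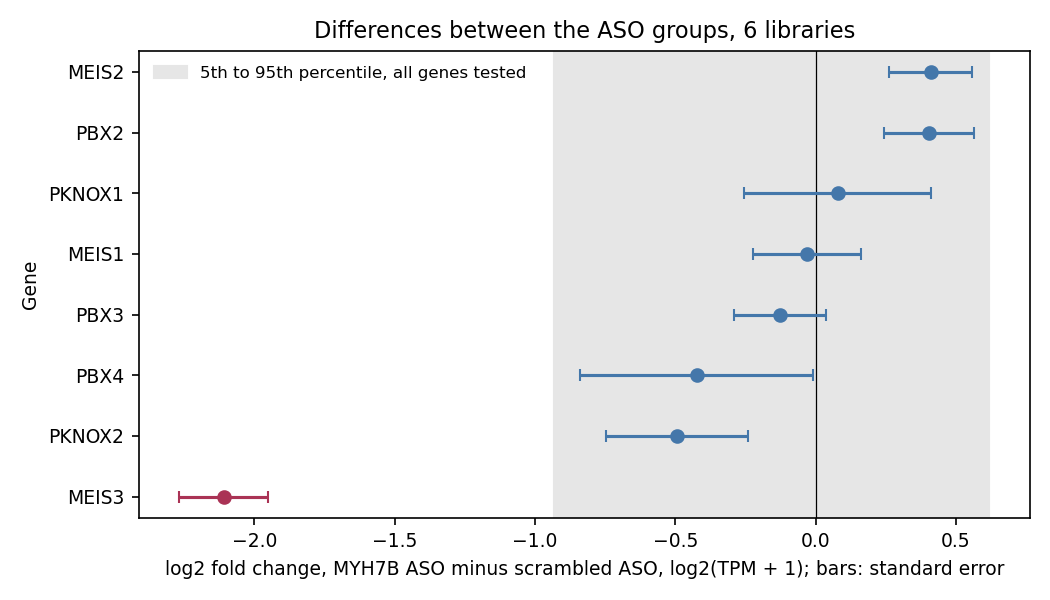
Log2 fold change of each gene, MYH7B ASO minus scrambled ASO, on the log2(TPM + 1) scale over 6 libraries, with the limma standard error as bars; the grey band runs from the 5th to the 95th percentile of all genes tested. MEIS3, at -2.11, is outside the band, and the 7 other genes lie inside it, between -0.49 and 0.41.

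Other genes of the TALE class showed no call. Of 10 such genes, TGIF, IRX and MKX genes among them, 7 were tested and 0 were called, with log2 fold changes from -0.13 to 0.86. At an unadjusted p under 0.05 there was 1 of the 7, against 15.2% of all genes tested. TGIF1 and TGIF2, repressors that bind a motif like that of MEIS, had 17.1 ± 3.02 and 13.8 ± 2.05 TPM with the scrambled ASO and 15.6 ± 2.53 and 14.7 ± 2.68 TPM with the MYH7B ASO (SD, n = 3 each). IRX3, named after its values were seen, had 3.04, 3.50 and 2.74 TPM and then 7.81, 7.77 and 4.24 TPM. Its groups did not overlap, and its log2 fold change of 0.86 did not pass (SE 0.26, limma adjusted p = 0.166). In the authors' deposited table IRX3 was 0.88 higher on the shrunken log2 scale (adjusted p-value 0.00113).

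HOX proteins are the classic partners of PBX and MEIS on DNA. Of 39 HOX genes, 30 were under a mean of 1 TPM and 9 were tested. None of the 9 was called, and 1 had an unadjusted p under 0.05, against 15.2% of all genes tested. It was HOXA4, named after its values were seen, with 1.08 ± 0.777 TPM and then 2.72 ± 0.638 TPM (SD, n = 3 each). The authors' deposited table calls HOXC8 and HOXD8 lower, both under a mean of 1 TPM here. In replicate 1 HOXC8 was 5.11 TPM, above every scrambled ASO library, and HOXD8 was 1.69 TPM, inside the scrambled ASO range. The 9 tested HOX genes had a median log2 fold change of 0.08. The most abundant were HOXB3, HOXB4 and HOXB2. HOXB3 had 30.7 ± 7.16 TPM with the scrambled ASO and 25.5 ± 4.45 TPM with the MYH7B ASO, HOXB4 had 20.3 ± 2.20 and 27.1 ± 6.20 TPM, and HOXB2 had 14.8 ± 3.03 and 15.99 ± 4.72 TPM (SD, n = 3 each).

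PBXIP1 binds PBX proteins and keeps them from DNA. It had 35.6, 28.8 and 43.4 TPM with the scrambled ASO and 60.7, 58.9 and 42.7 TPM with the MYH7B ASO, so the groups overlapped at 1 library. The difference of 0.58 on the log2 scale did not pass (SE 0.20, limma adjusted p = 0.223). In the authors' deposited table PBXIP1 was 0.59 higher on that scale (adjusted p-value 0.00324). CRBN, the cereblon ubiquitin ligase receptor known to bind MEIS2, had 20.9 ± 1.20 and 17.5 ± 3.54 TPM (SD, n = 3 each), a log2 fold change of -0.26 (SE 0.18, limma adjusted p = 0.538). TLX1, a homeobox factor that can bind MEIS proteins, was near the filter at 0.597 and 1.44 TPM and was not called (limma adjusted p = 0.525).

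The inhibitors of cyclin-dependent kinases were listed because MEIS1 is known to act on CDKN1A, CDKN2A and CDKN2B in mouse heart muscle. Of 7 such genes, 0 were called by limma and 2 had an unadjusted p under 0.05, against 15.2% of all genes tested. CDKN1A had 86.7 ± 30.3 TPM with the scrambled ASO and 135 ± 45.0 TPM with the MYH7B ASO (log2 fold change 0.64, SE 0.29, limma adjusted p = 0.345). CDKN1C had 72.2 ± 20.7 and 102.5 ± 4.07 TPM without overlap (log2 fold change 0.54, SE 0.20, limma adjusted p = 0.255), and CDKN1B 41.5 ± 5.14 and 39.3 ± 3.41 TPM (SD, n = 3 each). CDKN2B, named after its values were seen, had 9.77, 5.73 and 17.3 TPM and then 2.07, 4.75 and 2.82 TPM, and its log2 fold change of -1.43 did not pass (SE 0.38, limma adjusted p = 0.125). In replicate 1 CDKN2B was 23.7 TPM, above every scrambled ASO library. CDKN2A had 8.05 ± 5.81 and then 2.83 ± 3.22 TPM (SD, n = 3 each) with overlapping groups, and 39.0 TPM in replicate 1. Its log2 fold change of -1.30 did not pass (SE 0.68, limma adjusted p = 0.414). The authors' deposited table calls 3 of the 7 inhibitors, against 8.71% of all its genes in either direction. The 3 shrunken log2 values were -1.07 for CDKN2B (adjusted p-value 0.000399), 0.52 for CDKN1C (0.0172) and 0.58 for CDKN1A (0.0338). The hypoxia factors HIF1A and EPAS1, listed because MEIS1 is known to raise them in blood stem cells, differed by -0.27 (SE 0.16) and -0.63 (SE 0.17) on the log2 scale, and neither was called (limma adjusted p = 0.476 and 0.135). EPAS1 is called lower in the authors' deposited table, at a shrunken log2 value of -0.53 (adjusted p-value 0.0230). It had 13.6 to 17.5 TPM with the scrambled ASO and 8.99 to 10.7 TPM in MYH7B ASO replicates 2 to 4. In replicate 1 EPAS1 was 37.1 TPM, above every scrambled ASO library. With 7 libraries its difference was -0.18 (SE 0.42, limma adjusted p = 0.879).

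Among 8 cardiac transcription factors, 1 was called, against 0.181% of all genes tested called higher and 1.66% in either direction. ISL1, a factor of the second heart field and of pacemaker cells, had 9.03, 9.52 and 11.1 TPM with the scrambled ASO and 18.6, 24.4 and 18.6 TPM with the MYH7B ASO. It rose by 0.98 on the log2 scale (SE 0.18, limma adjusted p = 0.0359), and replicate 1, at 18.5 TPM, was also above the scrambled ASO range. The ISL1 call was lost when any 1 of the 6 libraries was left out, with limma adjusted p from 0.0649 to 0.135, although the difference stayed between 0.85 and 1.06. The authors' deposited table also calls HAND1 and HAND2 higher. The list's median was 0.34, beside -0.04 over all genes tested.

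Summed fibroblast and smooth muscle markers were lower in the 3 MYH7B ASO libraries, as MEIS3 was. In bulk samples, fewer cells of a type and less RNA per cell cannot be told apart. The 7 fibroblast markers summed to 2278 to 4094 TPM with the scrambled ASO and 1106 to 1724 TPM with the MYH7B ASO. Most of that sum was COL1A1, at a mean of 1667 and then 796 TPM, and COL3A1, at 1099 and then 538 TPM. The sum thus mainly reads these collagen genes. Of these markers 1 was called, LUM, a collagen-binding proteoglycan, which fell by 2.22 on the log2 scale (SE 0.43, limma adjusted p = 0.0489); PDGFRA and TCF21, which define cardiac fibroblasts, had positive differences of 0.60 and 0.71 and were not called. The LUM call was lost when any library except scrambled ASO replicate 3 was left out, with limma adjusted p from 0.0628 to 0.191, and with 7 libraries (limma adjusted p = 0.391). The 4 smooth muscle markers summed to 934 to 1330 TPM and then 543 to 723 TPM. MYH11, smooth muscle myosin, fell by 2.41 on the same scale (SE 0.27, limma adjusted p = 0.00599), and limma called no other smooth muscle marker. CNN1, also among the 4, went the other way, with a difference of 0.24 (SE 0.14) and overlapping groups. The MYH11 call was lost with no filter on low values (limma adjusted p = 0.0556). In the authors' deposited table TAGLN, ACTA2, COL1A1 and COL3A1 were also called lower, at shrunken log2 values of -1.04, -0.67, -0.88 and -0.80, and PDGFRA and TCF21 higher, at 0.61 and 0.72. In replicate 1 the fibroblast sum was 3440 TPM and the smooth muscle sum 1075 TPM, both inside the scrambled ASO range in TPM, while MEIS3 in that library was 9.44 TPM. Its mitochondrial share was 17.2%, against 27.4% to 33.2% with the scrambled ASO, which raises its other TPM values. Whether its smooth muscle sum lies inside the scrambled ASO range therefore depends on the scaling. LUM was 43.8 TPM in replicate 1, also inside the scrambled ASO range, and MYH11 was 13.4 TPM, below it.

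**Figure D4:**
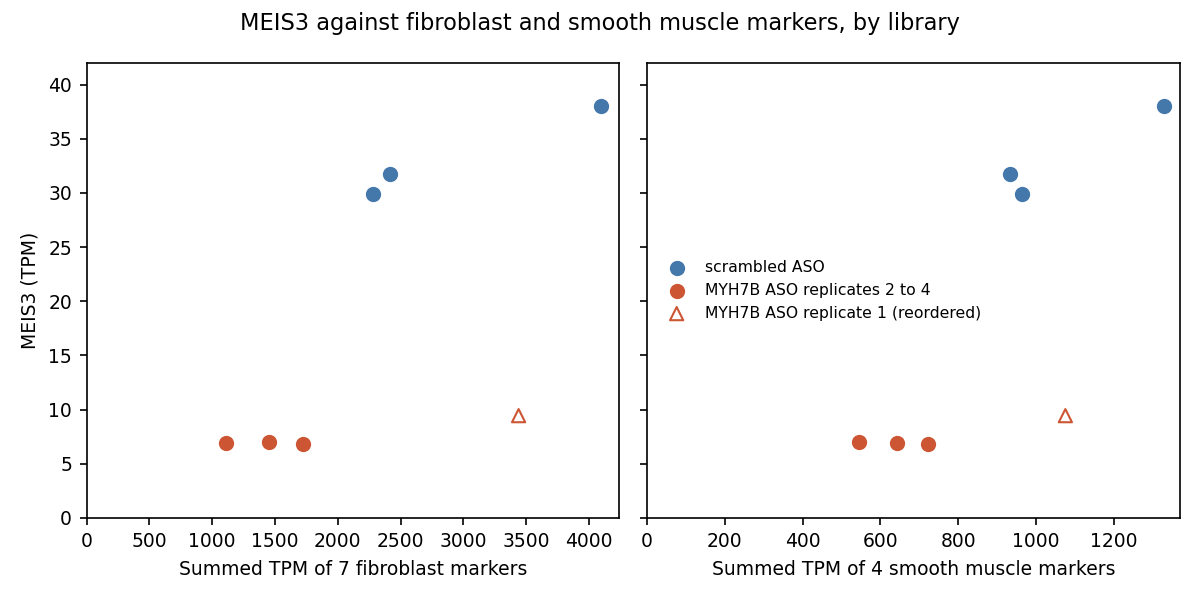
MEIS3 in TPM against the summed TPM of 7 fibroblast markers (left) and 4 smooth muscle markers (right), with 1 point per library. Most of the fibroblast sum is COL1A1 and COL3A1. In the 3 filled red libraries both axes are low, while MYH7B ASO replicate 1 (triangle) has MEIS3 at 9.44 TPM with marker sums of 3440 and 1075 TPM. TPM values of replicate 1 are raised by its smaller mitochondrial share.

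Some other cell types were checked by their markers. Epicardial markers summed to 142 to 214 TPM with the scrambled ASO and 137 to 195 TPM with the MYH7B ASO, and none of 4 was called. Endothelial markers summed to 17.5 to 21.8 TPM and then 11.5 to 17.2 TPM, with PECAM1, CDH5 and VWF each under a mean of 1 TPM. Pluripotency markers summed to at most 7.13 TPM in any of the 6 libraries. Endoderm markers summed to 4.03 to 6.41 TPM and then 9.37 to 15.6 TPM, nearly all of it APOA1, with FOXA2, TTR, AFP and SOX17 under 1 TPM and none called. TUBB3, a neuronal tubulin named after its values were seen, had 8.34 to 16.1 TPM and then 11.7 to 22.4 TPM, with 65.8 TPM in replicate 1, far above the other libraries. The authors' deposited table calls TEK lower and APOA1 higher. The part of these cells in the MEIS and PBX values was not tested beyond the sums given.

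The genes whose levels over the 6 libraries were most like those of MEIS3, by Pearson correlation of log2(TPM + 1) among 15987 other genes, were RNF180 (0.9994), ACBD3 (0.9994), MB21D2 (0.9991), COL6A3 (0.9990) and TMTC2 (0.9967). These coefficients describe 6 libraries that share the group difference on which MEIS3 was picked. COL6A3, a collagen VI chain made by fibroblasts, had 48.4, 51.7 and 71.4 TPM with the scrambled ASO and 9.63, 9.45 and 9.11 TPM with the MYH7B ASO. In replicate 1 COL6A3 had 20.5 TPM. MB21D2 had 6.65, 7.19 and 7.85 TPM and then 1.85, 1.90 and 2.01 TPM. ACBD3, a Golgi protein, spanned 27.6 to 29.8 TPM and 19.6 to 19.8 TPM, a much smaller difference of -0.52 on the log2 scale, so likeness here is in shape and not in size.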

How the data were processed

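The authors deposited TPM values for 60234 genes in 7 libraries, each column summing to 1000000, and a comparison table. Per the file headers, that deposited table holds a mean normalized count (a signal), a log2 fold change, shrunken per its name, with its standard error, a test statistic (a score) and p-values before and after adjustment. The submitters' processing notes list DESeq2 and GRCh38.p13; aligner, quantifier and annotation are not given in the sources used here. No per-sample column was left unused. The headers of the comparison table do not name the libraries it compared. Its calls may therefore rest on another set of libraries than the limma fit.

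The column of MYH7B ASO replicate 1 held 58721 values and 1513 empty rows. GENCODE 29 has 58721 genes on the chromosomes; assigned to its sorted identifiers, the values had a median correlation with the other libraries of 0.955, against 0.408 as deposited. Replicate 1 stayed out of the 6-library comparison, since it may rest on another annotation.

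Genes averaging 1 TPM or more over the 6 libraries were fitted with limma 3.58.1 in R 4.3.3 (lmFit, eBayes with a trend, log2(TPM + 1), no covariate; Benjamini-Hochberg adjustment over all genes). Fold changes on this scale understate those of low genes. No count test was run on TPM. An exact permutation test of 3 libraries against 3 cannot go below 0.1 and was not used. Gene positions are from GENCODE 29 on GRCh38. The homeodomain stretch was taken from the basic transcript most like that of MEIS1. Python 3.11.15, pandas 2.3.3 and matplotlib 3.10.9 were used.

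The members and lists were chosen with earlier results of these data known. The rule named all 8 members, called genes of the lists, otherwise up to 3 of the most abundant per list, 4 tested neighbours of MEIS3 and the 5 genes most like MEIS3. Under this rule 1 further gene is left out. The alternatives were other pseudocounts, filters, scalings and variance settings, 7 libraries, leaving out each library, and replicate blocks.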

Additional observations from a re-analysis of the deposited data

Results flagged for a closer look

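With the reordered column included, the MYH7B ASO group has 4 libraries, and the 8 genes were each examined for a library far from the other 3. MEIS3 had one: MYH7B ASO replicate 1, at 9.44 TPM against 6.83 to 6.96 TPM. Among like libraries chance gives about 1 such library in 20 groups, and 8 groups were examined. That rate cannot be applied here. The 3 close values are among those by which MEIS3 was picked, and replicate 1 is a reordered column with another mitochondrial share. The level was still below the 29.9 TPM of the lowest scrambled ASO library.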

How the results depend on the processing

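Leaving MEIS3 aside, none of the 7 other members was called in any of the 18 alternatives. PBX4 was tested in 17 of them. The fits with a replicate block called no gene of the whole table, so they could call no member. The log2 fold change of MEIS2 ran from 0.34 to 0.56 and that of PBX2 from 0.29 to 0.55. MEIS3, untested, ran from -2.25 (pseudocount 0.1) to -1.68 (pseudocount 5), and from -2.18 to -2.01 when each library was left out in turn. The number of genes called in the whole table, 265, was 40 with no filter on low values, 150 without the intensity trend and 170 with 7 libraries. It ran from 53 (without MYH7B ASO replicate 4) to 149 (without scrambled ASO replicate 2). With the replicate block it was 0 by title number, by description number, and by title number with 7 libraries, a fit chosen after seeing the data; 1718, 1096 and 1773 genes had an unadjusted p under 0.05 there. Same-numbered libraries had correlations of deviations from the group means of 0.077 and 0.11 by title and -0.075 and -0.042 by description. Different-numbered libraries had -0.075 to 0.044 by title, below the same-numbered ones, and -0.069 to 0.11 by description. In 7 libraries the title pairs had 0.019, 0.14 and 0.019, inside the -0.16 to 0.16 of different-numbered libraries. These values do not settle whether the numbers mark pairs, and the main fit uses none. Signs turned mostly for small differences, but also for CDKN2A, at -1.30 (SE 0.68) in the 6-library fit. Leaving out each library gave -0.22 to 0.080 for MEIS1, -0.14 to 0.41 for PKNOX1, -0.0996 to 0.32 for HOXB2, -0.038 to 0.21 for TGIF2, -0.15 to 0.020 for CDKN1B, -0.14 to 0.20 for DHX34, -0.50 to 0.091 for SLC8A2 and -0.61 to 0.029 for MEIS3P2. MEIS1 was 0.034 with median-ratio scaling. With 7 libraries PBX3 was 0.10, PKNOX1 -0.20 and SLC8A2 0.10. With the replicate block by title number MEIS3P1 was 0.049, MEIS3P2 0.072 and SLC8A2 0.32. With the replicate block by description number TGIF2 was -0.096, HOXB2 -0.23 and DHX34 -0.27. With the replicate block by title number and 7 libraries PBX3 was 0.26, PKNOX1 -0.38, MEIS3P1 0.054, MEIS3P2 0.027, SLC8A2 0.36 and CDKN2A 0.059. The cause of these moves was not tested. The calls of ISL1, LUM, MYH11, COL6A3, MB21D2 and MYH7B were all lost under each block, and with no filter on low values all of these but that of COL6A3 were lost.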
